A study of Mus musculus with 50 samples.

Results

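Grb10, gene ENSMUSG00000020176.10 on chromosome 11, was followed through RNA sequencing of J1 mouse embryonic stem (ES) cells labelled NSD1-/- or wild type. It is 1 of the 37310 genes in the deposited count tables. It was selected on its measured difference between the knockout lines and wild type in these libraries, so its values against wild type are given as a description, with no test. The lines labelled KO1 and KO2, 2 in all, carry the genotype label NSD1-/-, and they were compared with wild type J1 cells, with 2 libraries in each of the 3 groups. All cells were of the 129S4/SvJae strain, untreated, and grown in medium with fetal bovine serum and leukemia inhibitory factor on gelatin. The labels do not give how KO1 and KO2 were made or whether each is 1 clone. Nor do they give separate cultures for the 2 libraries of a group, and p-values therefore speak only of library spread, part of which may be technical.

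NSD1 is a histone methyltransferase that places the H3K36me2 mark. Grb10 encodes an adaptor protein of the Grb7 family that binds the activated insulin receptor and the IGF1 receptor and restrains their signalling, and mice that lack its maternal copy overgrow. The gene is imprinted: in most mouse tissues the maternal allele is transcribed from an upstream start, while neurons transcribe the paternal allele from downstream starts beside a CpG-rich region that is methylated on the maternal allele. The question here was how the counts at Grb10 varied between the knockout and wild type libraries, and whether its neighbours, its chromosome, its pathway or other imprinted genes varied with it.

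Grb10 lies on the minus strand at chr11:11830511-11938686 of mm9 (NCBIM37), a span of 108176 bases. GENCODE mouse version 1, the annotation behind the tables, gives it 12 transcripts, of which 9 are protein-coding, and 23 merged exons with 9164 exonic bases. The last exon alone covers 3102 bases. The 9 coding transcripts begin at 6 distinct positions. The 250 bases upstream of 3 starts are printed because they show how unlike the promoters of this gene are. They run 5′ to 3′ on the minus strand, and capitals mark each CG dinucleotide. Starts 1 and 2 are promoters of the RefSeq table (built on GRCm38.p6), each found exactly once in NCBIM37, at chr11:11937424-11937673 and chr11:11927975-11928224. Start 3 is read from NCBIM37 upstream of a GENCODE start, at chr11:11926328-11926577. None of these windows overlaps an annotated exon. The reference genome is of the C57BL/6J strain, so the bases in these 129S4/SvJae cells may differ.
Grb10 start 1: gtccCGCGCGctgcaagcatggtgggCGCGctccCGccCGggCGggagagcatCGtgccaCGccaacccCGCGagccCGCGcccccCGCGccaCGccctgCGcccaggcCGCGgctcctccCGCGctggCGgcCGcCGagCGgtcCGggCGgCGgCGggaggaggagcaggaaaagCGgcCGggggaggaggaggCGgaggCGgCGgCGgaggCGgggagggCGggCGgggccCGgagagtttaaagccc
Grb10 start 2: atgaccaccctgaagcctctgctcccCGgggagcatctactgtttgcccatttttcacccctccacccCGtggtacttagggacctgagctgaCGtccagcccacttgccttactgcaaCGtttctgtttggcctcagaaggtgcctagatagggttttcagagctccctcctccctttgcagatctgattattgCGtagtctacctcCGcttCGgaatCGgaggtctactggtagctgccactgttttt
Grb10 start 3: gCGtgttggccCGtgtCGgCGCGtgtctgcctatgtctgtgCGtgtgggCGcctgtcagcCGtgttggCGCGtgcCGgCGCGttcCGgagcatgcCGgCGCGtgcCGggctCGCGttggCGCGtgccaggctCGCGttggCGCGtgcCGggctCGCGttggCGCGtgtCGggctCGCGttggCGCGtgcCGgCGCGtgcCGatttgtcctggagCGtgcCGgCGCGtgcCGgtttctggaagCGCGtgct

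Start 1 held 40 CG dinucleotides in 250 bases, and 1.31% of the 32851 promoters in the RefSeq table held as many, against a median of 6. Its GC content was 81.2%, and it held the GC box GGGCGG, on either strand, 5 times. A GC box on either strand was present in 32.7% of all promoters. Of the coding GENCODE transcripts, 4 begin just downstream of it. Start 2, 10.7 kb downstream of the first annotated start, was an ordinary promoter by composition, with 8 CG dinucleotides, no GC box and a GC content of 54%, and 43% of promoters held as many CG dinucleotides. Start 3, 12.4 kb downstream of the first start, held 47 CG dinucleotides, which 0.25% of promoters matched or passed, and had no GC box. Its ratio of observed to expected CG was 1.41, against 0.98 at start 1 and 0.45 at start 2. The window at start 3 repeats the letters GGCGCG 10 times, counted at every position on both strands. That motif was picked after the sequence was seen. It occurred 3 times at start 1 and not at start 2, 15.9% of promoters held it at least once, and 0.0152% held it 10 times or more. These matches describe letters only. The tables count fragments per gene over all exons, so transcripts from different starts, and the parental alleles, cannot be told apart.

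**Figure D1:**
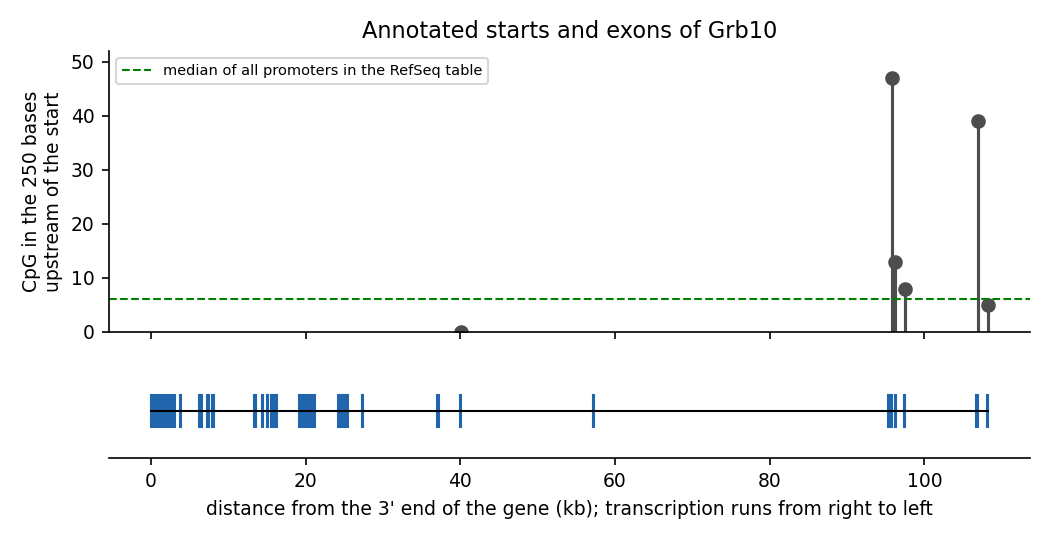
Exons of Grb10 (lower panel, boxes) and the number of CG dinucleotides in the 250 bases upstream of each of the 6 coding GENCODE starts (upper panel, points), by distance in kb from the 3' end of the gene; the dashed line is the median of 6 over all promoters in the RefSeq table. The starts with 39 and 47 CG dinucleotides stand far above that line, and the start nearest the 3' end has 0.

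Library totals were 1168961 and 1194285 counts in KO1, 1150089 and 1285487 in KO2, and 1203554 and 1237783 in wild type, of which AY036118, a single locus, took 32.3% to 37.2%. Genes with an annotated gene on the other strand (4887 genes with at least 50 overlapping exonic bases) held 85.7% to 87.8% of the remaining counts, and such counts were taken to come mostly from the transcript on the other strand. At Actb, the highly expressed beta-actin gene, only 104 to 144 counts were found. Pou5f1, a pluripotency factor abundant in ES cells, had 14 to 23. No annotated gene overlaps Grb10 on either strand, so the tables do not tell whether its fragments came from its own transcripts or from an unannotated transcript opposite. Counts at Nsd1 were 55 and 38 in KO1, 27 and 21 in KO2, and 21 and 25 in wild type (log2 difference of both lines together 0.50 ± 0.26, adjusted p = 0.301 in the edgeR fit). Nsd1 was called higher in KO1 (0.94 ± 0.27, adjusted p = 0.023) and differed by 0.05 in KO2 (adjusted p = 0.945). Counts at the targeted gene were thus not called lower in either line. They do not check the label NSD1-/- of KO1 or of KO2. The position of any deletion is not given in the labels, and the strand of these fragments is not known. KO1 and KO2 stand throughout for the libraries so labelled, and every direction given against wild type rests on those labels.

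Grb10 had 61 and 92 counts in KO1, 76 and 100 in KO2, and 18 and 26 in wild type. All 4 knockout libraries lay above both wild type libraries, and the groups did not overlap. Grb10 was chosen on its difference from wild type, so this separation is a description only. The share of all tested genes that separate so is not given here. On the CPM scale (counts divided by the scaled library size), the levels were 49.3 and 77.1 in KO1, 67.7 and 82.4 in KO2, and 15.7 and 22.1 in wild type. The lowest knockout library stood at 2.23 times the highest wild type library. Within groups, the highest of the 4 knockout libraries was 1.67 times the lowest, and the higher wild type library 1.4 times the other. Counting error alone gave exact Poisson intervals (95%) of 46.7 to 78.4 counts for the lowest knockout library, KO1 replicate 1, and of 17 to 38.1 counts for the highest wild type library, replicate 2. Such intervals cover counting error only.

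**Figure D2:**
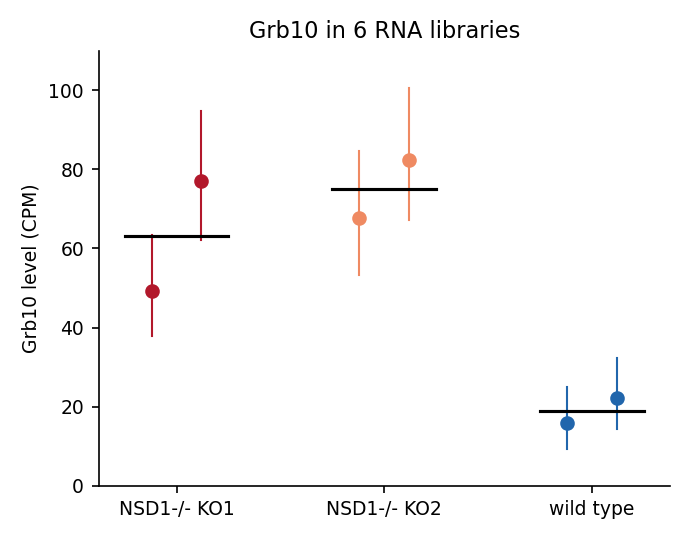
Grb10 level in CPM in each of the 6 RNA libraries; points are libraries, vertical lines 95% Poisson intervals of the counts on the CPM scale, and horizontal bars group means. The 4 knockout libraries sit between 49.3 and 82.4 CPM, and the wild type libraries at 15.7 and 22.1 CPM.

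The mean level was 63.2 ± 19.7 CPM in KO1, 75.1 ± 10.4 CPM in KO2 and 18.9 ± 4.49 CPM in wild type (SD, n = 2 each), and 69.2 ± 14.6 CPM over both knockout lines (SD, n = 4). Per kb of exon, the level was 6.9 CPM in KO1, 8.19 in KO2 and 2.07 in wild type. The fitted log2 difference from wild type was 1.85 ± 0.23 for the lines together (SE, 95% interval 1.38 to 2.33), a 3.62-fold higher level. It was 1.73 ± 0.26 for KO1 (1.19 to 2.26, 3.31-fold) and 1.98 ± 0.25 for KO2 (1.47 to 2.5, 3.95-fold). Both lines share the wild type libraries, so these values are not independent. Within groups, log2 CPM had a residual SD of 0.33.

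KO1 against KO2 was the comparison that the choice of the gene did not use. Grb10 was 0.26 ± 0.19 lower in KO1 than in KO2 on the log2 scale (95% interval -0.65 to 0.14, adjusted p = 0.389 in the edgeR quasi-likelihood fit across all genes). The test was not passed, and differences of up to 0.65 lower in KO1 remain within the interval. Without KO1 replicate 1, which had the fewest Grb10 counts of the knockout libraries, the sign turned and the difference was 0.05 (adjusted p = 0.921). Without KO1 replicate 2, the KO1 difference from wild type was 1.36.

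Set beside the counts at Actb, Grb10 gave 0.452 and 0.885 counts for each Actb count in KO1. It gave 0.704 and 0.694 in KO2, and 0.136 and 0.2 in wild type. Actb had only 104 to 144 counts, few for a highly expressed gene, and their strand is not known. The ratios are therefore not levels relative to beta-actin RNA. Actb itself differed between the knockout lines and wild type by -0.13 ± 0.13 on the log2 scale (adjusted p = 0.634). Among the 18974 protein-coding genes with no gene opposite, 111 to 212 had more counts than Grb10 in KO1, 91 to 118 in KO2 and 605 to 891 in wild type. Grb10 therefore stood among the most counted genes of this kind in the knockout libraries, and lower in the order in wild type. Over all tested genes, 16 of the other 5033 had a larger log2 difference in the lines together, 37 in KO1 and 20 in KO2.

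The neighbourhood of Grb10 held few counts in these tables. Of 26 genes within 1 Mb of its span, 13 had 0 counts in every library and 10 others had at most 8, which left 3 to test: Ddc, Cobl and Gm12002. None was called (adjusted p under 0.05) in the lines together, where 6.62% of all tested genes were called, in KO1 (9.79%), in KO2 (8.98%), or between KO1 and KO2 (19.3%). By edgeR, 0 of the 3 had an unadjusted p under 0.05 in any of these comparisons, and DESeq2 called 0. The median log2 difference of these 3 genes was 0.41 in the lines together, against -0.01 over all tested genes, and 0.40 in KO1 and 0.43 in KO2. All are positive and all are far smaller than the 1.85 of Grb10.

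Ddc (chr11:11714104-11798047, 32.5 kb from Grb10) encodes the decarboxylase that makes dopamine and serotonin, and is imprinted in the developing mouse heart. It had 21 and 11 counts in KO1, 10 and 18 in KO2, and 7 and 10 in wild type. Its lowest knockout library thus tied with its highest wild type library in counts. On the CPM scale these stood at 8.91 and 8.5, so all 4 knockout libraries lay just above wild type. Its log2 difference was 0.77 ± 0.41 in the lines together (adjusted p = 0.322), 0.84 in KO1 (0.289) and 0.70 in KO2 (0.404). Cobl (chr11:12136611-12364963, 198 kb away), an actin nucleator, had 32 and 34 counts in KO1, 43 and 34 in KO2, and 30 and 28 in wild type. Its groups were close, with a difference of 0.26 ± 0.23 (adjusted p = 0.609). Gm12002 (chr11:12214517-12251031), a noncoding transcript on the plus strand within the span of Cobl, had 31 and 38 counts in KO1, 36 and 32 in KO2, and 26 and 24 in wild type. Its 4 knockout libraries all lay above wild type, by 0.41 ± 0.24, and it did not pass the test (adjusted p = 0.378). The share of all tested genes that separate in this way, as Grb10, Ddc in CPM and Gm12002 do, is not given here.

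**Figure D3:**
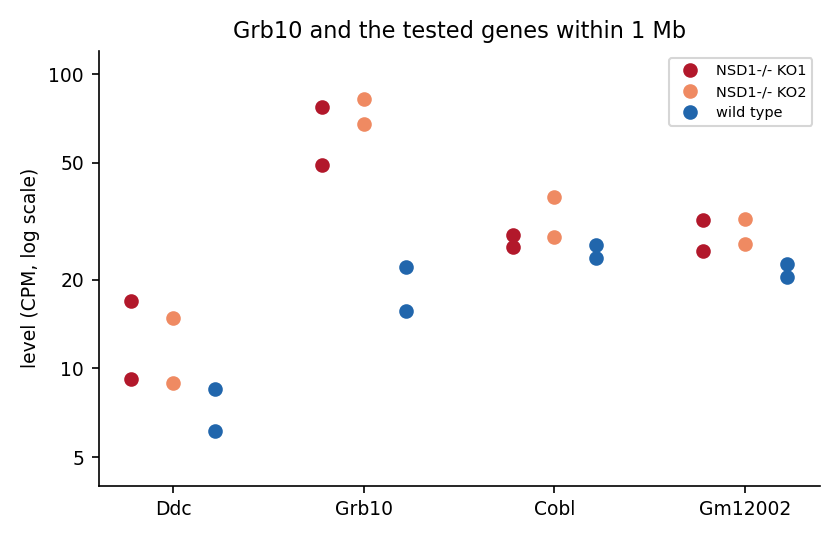
Levels in CPM (log scale) of Grb10 and of the 3 tested genes within 1 Mb, in order along the chromosome; each point is a library, with KO1, KO2 and wild type from left to right for each gene. The knockout and wild type points are far apart at Grb10 and close together or touching at Ddc, Cobl and Gm12002.

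The untested neighbours lie on both sides of Grb10. SCARNA4, a small RNA gene 16.8 kb away, had 3 and 6 counts in KO1, 5 and 4 in KO2, and 3 and 0 in wild type. The noncoding 1700042O10Rik had 7 and 3 counts in KO1, 8 and 4 in KO2, and 3 and 2 in wild type. Ikzf1, which encodes the lymphoid factor Ikaros, had 1 count in all. Summed over the 26 neighbours, the counts were 99 and 97 in KO1, 110 and 97 in KO2, and 76 and 68 in wild type. That sum was higher in every knockout library than in wild type, though no background of sums over other neighbourhoods is given. Grb10 differed by more: it gave 0.616 and 0.948 counts for each neighbour count in KO1, 0.691 and 1.03 in KO2, and 0.237 and 0.382 in wild type. The nearest tested gene on the other side of Ddc, at lower coordinates, is Tns3, 3.27 Mb away. It had 5 and 19 counts in KO1, 20 and 11 in KO2, and 8 and 3 in wild type (1.26 ± 0.53, adjusted p = 0.18).

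Chromosome 11 genes were called higher in KO2 in a larger share than all tested genes, and in KO1 their shares called were below those of all genes in both directions. Of 559 other tested genes on it, 122 (21.8%) rose and 2 (0.358%) fell in KO2, where 5.01% and 3.97% of all tested genes did. In KO1, 13 (2.33%) rose and 23 (4.11%) fell, against 3.46% and 6.34% of all genes. In the lines together 54 rose and 2 fell, against 2.72% and 3.89%. Between the lines, 4 chromosome 11 genes were higher and 134 lower in KO1 than in KO2, against 7.93% and 11.4% of all genes. The median log2 difference of chromosome 11 genes was 0.40 in KO2 and 0.06 in KO1. Relative to the median of all genes this was 0.41 in KO2, while the other chromosomes lay between -0.12 and 0.05 in that comparison. By 10 Mb windows the KO2 medians ran between 0.17 and 0.52, positive along the whole chromosome, and the KO1 medians between -0.11 and 0.23.

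The number of calls on chromosome 11 depended on the tool and the libraries. DESeq2 called 24 in the lines together, 13 in KO1, 65 in KO2 and 86 between the lines. The count in the lines together was 37 without wild type replicate 1 and 37 without wild type replicate 2. In KO1 it was 22 without KO1 replicate 1 and 18 without KO1 replicate 2. With all knockout libraries fitted as 1 group, 2 were called in the lines together.

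Grb10 stood above its chromosome by a similar amount in both lines. Its log2 difference exceeded the chromosome 11 median by 1.66 in KO1, 1.59 in KO2 and 1.64 in the lines together. The chromosome's middle range, 10th to 90th percentile, was -0.39 to 0.68 in KO1 and -0.15 to 0.92 in KO2, so Grb10 lay outside it in each. Between the lines, the -0.26 of Grb10 lay 0.06 from the chromosome median of -0.31. In the 10 Mb window that holds Grb10, the 6 other tested genes had a median of 0.20 in KO1 and 0.35 in KO2. Only 1 of these 6 was called in any comparison: Wdr92, 5.14 Mb from Grb10, which rose by 0.31 in KO2 (adjusted p = 0.0332).

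**Figure D4:**
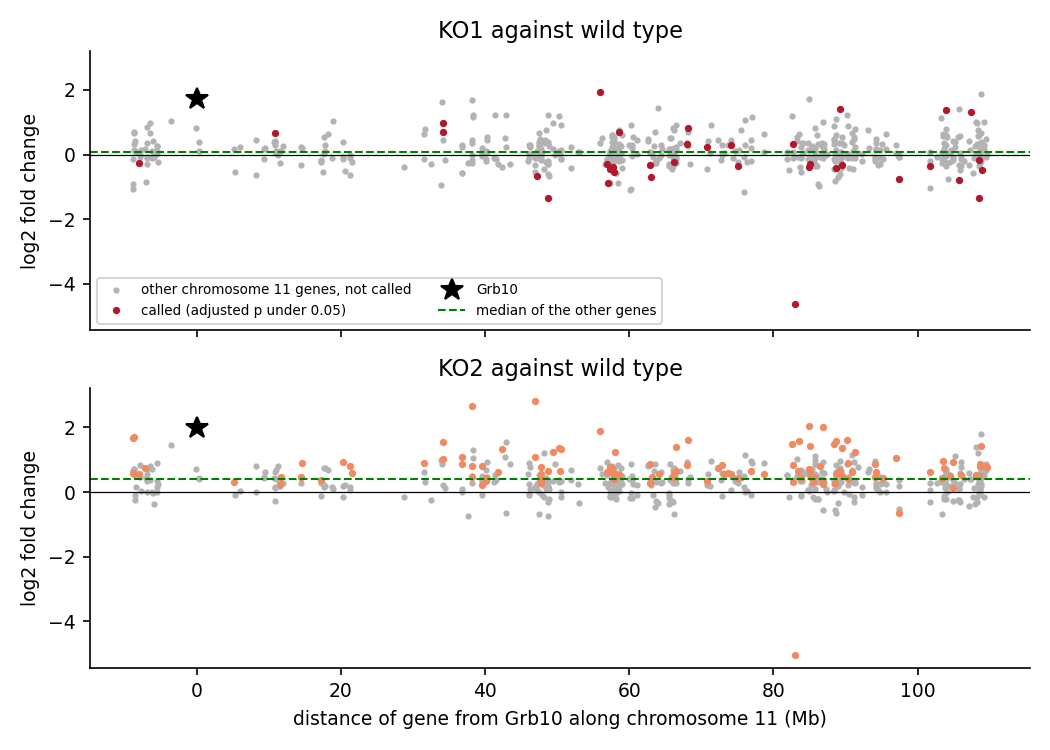
Log2 difference from wild type of the tested chromosome 11 genes by distance in Mb from Grb10 (0), for KO1 (upper panel) and KO2 (lower panel); coloured points are called genes, the star is Grb10 and the dashed line the median of the other genes. Grb10 stands near 2 in both panels, while the cloud of other genes sits at a median of 0.06 in KO1 and of 0.40 in KO2.

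By size of the log2 difference in the lines together, Grb10 was 4 of 560 on chromosome 11. The genes around it in that order rest on far fewer counts. Above it came Mgat4b, a glycosyltransferase gene (2.18 ± 0.74), with 11 and 3 counts in KO1, 10 and 17 in KO2, and 0 and 4 in wild type. Stx8, a syntaxin gene (1.92 ± 0.54), had 16 and 9 counts in KO1, 12 and 11 in KO2, and 3 and 3 in wild type. Prr15l (1.88 ± 0.50) had 18 and 10 in KO1, 21 and 13 in KO2, and 6 and 2 in wild type. Below Grb10 came Ccdc57 (1.83 ± 0.61), Rapgefl1 (1.5 ± 0.47) and Gm12230 (1.39 ± 0.52), with at most 19 counts in any library. The nearest of the 6 lies 38.1 Mb from Grb10. In a choice made after values were seen, 150 other chromosome 11 genes had a mean level at least as high as the 52.4 CPM of Grb10 over the 6 libraries. The largest difference among them in the lines together was 1.25 ± 0.09, at Gm16033 (opposite Adam19), and it was 0.97 ± 0.10 in KO1 and 1.53 ± 0.10 in KO2.

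The genes whose log2 CPM followed that of Grb10 most closely over the 6 libraries were sought among 1860 genes with a range of at least 1 on the log2 scale. The median Pearson r was -0.02, and 33 genes exceeded 0.9. These r values describe 6 libraries that share groups, depth and scaling. A gene alike to Grb10 is by construction high in the knockout libraries, so no test is given. The closest was Fam151a on chromosome 4 (r = 0.98, opposite Acot11, an acyl-CoA thioesterase gene), with 34 and 46 counts in KO1, 55 and 51 in KO2, and 13 and 16 in wild type. Next came Rprd1b on chromosome 2 (r = 0.97) and, at 0.96 each, Gm12230 on chromosome 11, Ankrd13a on chromosome 5 and RP23-396G1.3 on chromosome 2. Rprd1b and RP23-396G1.3 both lie opposite Tgm2, a transglutaminase gene, so they may count fragments of the same transcript. RP23-396G1.3 had 37 and 61 counts in KO1, 30 and 46 in KO2, and 8 and 15 in wild type. On chromosome 11, after Gm12230, the closest were Slc38a10, an amino acid transporter gene, and Chad, which encodes the matrix protein chondroadherin (r = 0.94 each).

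No gene of the pathway in which Grb10 acts was called against wild type by its own symbol. Of 57 genes of insulin and IGF signalling, 18 had enough counts to test. By edgeR 0 were called in the lines together, in KO1 and in KO2, with 2 at an unadjusted p under 0.05 in the lines together, 1 in KO1 and 1 in KO2, and DESeq2 called 0. Over all tested genes 6.62% were called in the lines together, 9.79% in KO1 and 8.98% in KO2, so a count of 0 among 18 is near the background. Without KO2 replicate 2, 1 of the pathway genes was called in KO2. The median log2 difference of the 18 was -0.06 in the lines together, -0.00 in KO1 and 0.06 in KO2, against -0.01, 0.01 and -0.01 over all tested genes. Among the ligands, Ins1, Ins2 and Igf1 had 0 counts in every library and Igf2 at most 1. Among the receptors, Insr had 0 and 0 counts in KO1, 2 and 0 in KO2, and 1 and 0 in wild type, and Igf1r had 1 and 0 in KO1, 4 and 0 in KO2, and 0 and 0 in wild type. Igf2r, which clears IGF2 and is imprinted, had 7 and 6 in KO1, 2 and 1 in KO2, and 2 and 3 in wild type. Counts this low could not show a difference at this depth.

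The other Grb7 family members had few counts. Grb7 had 7 and 4 counts in KO1, 3 and 5 in KO2, and 9 and 5 in wild type, and Grb14 had 0 in all 6 libraries. Irs1, a docking protein of both receptors, had 1 count in all. Gm9747, which lies opposite Irs1, had 6 and 2 counts in KO1, 0 and 1 in KO2, and 10 and 16 in wild type. It did not pass the filter and was not tested. Of the proteins known to bind Grb10, Nedd4, a ubiquitin ligase, differed in the lines together by -0.11 ± 0.28, and the GYF-domain proteins Gigyf1 and Gigyf2 by -0.35 ± 0.27 and 0.06 ± 0.39, with adjusted p-values of 0.885, 0.548 and 0.962 by edgeR. Among the most counted pathway genes were the kinase Gsk3a, at 0.29 ± 0.14, and Tsc2, a brake on mTORC1, at 0.06 ± 0.18. Gsk3a lies opposite 9130221H12Rik, Tsc2 opposite Pkd1 and Gigyf2 opposite Kcnj13. Their counts may therefore come mostly from the transcript on the other strand. Mtor, the kinase of the complex that phosphorylates Grb10, had the largest difference (1.09 ± 0.51, adjusted p = 0.246), with 10 and 12 counts in KO1, 8 and 10 in KO2, and 4 and 5 in wild type. Between the lines, 2 of the 18 were called (11.1%), where 19.3% of all tested genes were called. Among them was the kinase Akt1, at 0.76 in KO1 against KO2 (adjusted p = 0.039 by edgeR). DESeq2 did not call Akt1 between the lines (adjusted p = 0.313).

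Read by the gene opposite, 10 counted genes lay opposite a member of the pathway list and passed the filter. In the lines together 0 of them rose and 1 fell, and the median of the 10 was -0.07. In KO1 0 rose and 1 fell. These counts are near the background, in which 3.89% of all tested genes fell in the lines together, 6.34% in KO1 and 3.97% in KO2. In KO2 the only call was 9530052E02Rik opposite Irs2, a docking protein of the insulin receptor, which fell by 1.32 (adjusted p = 0.0444), with 21 and 30 counts in KO1, 8 and 8 in KO2, and 15 and 25 in wild type.

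Grb10 had a larger log2 difference from wild type than any other imprinted gene that could be tested, in each line. It was chosen on its difference from wild type in these libraries, so this first place is a description and not a test. The libraries of both lines entered that choice. Of 75 listed mouse imprinted genes other than Grb10, 71 were in the tables and 16 could be tested, Ddc and Cobl among them. In the lines together 0 rose and 3 fell, which is 18.8% of 16 against the 3.89% of all genes that fell. In KO1 4 rose and 0 fell, where 3.46% of all genes rose and 6.34% fell. In KO2 0 rose and 3 fell, where 5.01% of all genes rose and 3.97% fell. The median log2 difference was 0.19 in the lines together, 0.30 in KO1 and -0.25 in KO2. The largest value in the lines together after Grb10 was 0.84 ± 0.42 at Tspan32, a tetraspanin gene near Cd81 on chromosome 7 (adjusted p = 0.28). Without KO1 replicate 1, 1 imprinted gene was called in KO1, and with all knockout libraries in 1 group 0 were called in the lines together.

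The 3 that fell in the lines together were lower in KO2 than in KO1, each by the test between the lines (adjusted p of 1.92e-09 or less). Copg2 (opposite Mest, a paternally expressed hydrolase gene) had 1161 and 1105 counts in KO1, 574 and 638 in KO2, and 1070 and 1095 in wild type. It fell by 0.42 ± 0.05 in the lines together (adjusted p = 1.92e-06) and by 0.85 in KO2. Rtl1, a retrotransposon-derived gene of the Dlk1 to Dio3 cluster, had 791 and 628 counts in KO1, 222 and 234 in KO2, and 515 and 499 in wild type, so it rose by 0.42 in KO1 and fell by 1.16 in KO2. Xist (opposite Tsix, its antisense transcript) had 500 and 437 counts in KO1, 217 and 233 in KO2, and 393 and 367 in wild type, and fell by 0.77 in KO2. In KO1 the calls besides Rtl1 were Commd1, Gnas and H13. Commd1, which lies opposite the imprinted Zrsr1 on chromosome 11, rose by 0.67 (adjusted p = 0.000373 by edgeR). Gnas, the gene of a G protein subunit, rose by 0.62 (0.00572), and H13, a signal peptide peptidase, by 0.73 (0.0285). Rtl1 lies opposite Mir433, Gnas opposite AF085738 and H13 opposite Gm17559, so their counts too may come from the other strand. DESeq2 called 2 in KO1 and did not call Gnas (adjusted p = 0.168) or H13 (0.4) there, nor Xist in the lines together (0.243). Like Grb10, the fitted values of Tspan32, Ddc, Cobl, Zrsr1, Inpp5f and Cd81 were positive in both lines, and none of these 6 was called.

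**Figure D5:**
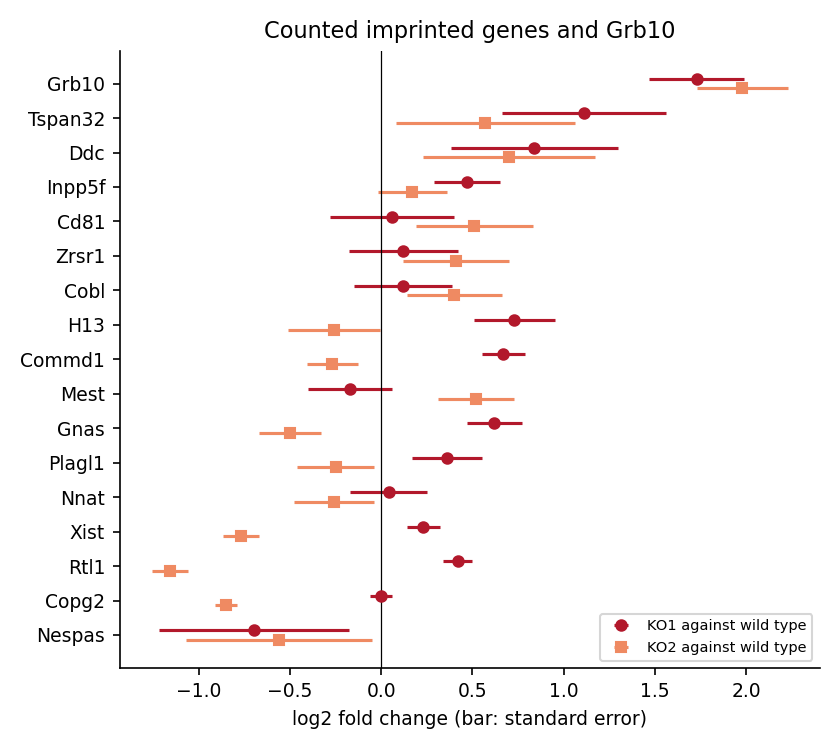
Log2 difference from wild type of Grb10 and the 16 other imprinted genes that could be tested, with KO1 (circles) and KO2 (squares) apart; bars are standard errors. Grb10, chosen on its difference from wild type, lies at 1.73 and 1.98, past every other gene in both lines. H13, Commd1, Mest, Gnas, Plagl1, Nnat, Xist and Rtl1 have KO1 and KO2 on opposite sides of 0.

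Read by the gene opposite, 11 counted genes lay opposite an imprinted gene and passed the filter. Of these, Nespas, Mest, Copg2, Commd1 and Zrsr1 are themselves among the imprinted genes tested above, so the tallies overlap. The falls of Copg2 and the rise of Commd1 in KO1 count in both. In the lines together 0 of the 11 rose and 4 fell, where 2.72% of all tested genes rose and 3.89% fell. AF085738 (opposite Gnas) had 3392 and 3401 counts in KO1, 4180 and 4550 in KO2, and 4972 and 5087 in wild type, and fell by 0.42 ± 0.04 (adjusted p = 3.84e-09). AL672259.1, opposite Nnat, a paternally expressed gene of neural tissue, had 6 and 4 counts in KO1, 56 and 50 in KO2, and 36 and 48 in wild type, and fell by 1.39 ± 0.27. The others were Copg2 and Gm17639, opposite the maternally expressed noncoding Meg3 (-0.31 ± 0.10, adjusted p = 0.0457). In KO1 1 of the 11 rose and 2 fell, against 3.46% and 6.34% of all genes. In KO2 0 rose and 3 fell, against 5.01% and 3.97%. DESeq2 did not call Gm17639 in the lines together (adjusted p = 0.283).

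Since Grb10 is known to be transcribed from its paternal allele in neurons, marker levels of other cell types are set beside its levels. The summed level of 8 neuronal marker genes was 216 to 222 CPM in KO1, 76.6 to 91.5 CPM in KO2 and 102 to 103 CPM in wild type, with Snap25 and Dcx at 0 in every library. By the gene opposite, 3 neuronal genes summed to 183 to 205 CPM in KO1, 41.9 to 56.1 in KO2 and 70.9 to 74.8 in wild type. Both sums were above wild type in KO1 and below it in KO2. They rest on few genes: 2 of the 8, and 2 of the 3 by the gene opposite, had enough counts to test. The 3 neural progenitor markers in the tables summed to 176 in KO1, 143 to 162 in KO2 and 154 to 157 CPM in wild type. Markers of pluripotent cells, all 10 of them with counts, summed to 295 to 321 CPM in KO1, 303 to 324 in KO2 and 289 to 315 in wild type. Primitive endoderm markers were at or near 0 (at most 1.75 CPM), with Sox17, Sox7, Dab2 and Gata6 at 0. Trophoblast markers summed to 17 to 18.4 CPM in KO1, 14 to 23.2 in KO2 and 14.9 to 18.7 in wild type. The 8 fibroblast markers summed to 33.1 to 47.8 CPM in KO1, 27.2 to 30.3 in KO2 and 27.2 to 31.5 in wild type, with Col3a1, Col1a2 and Thy1 at 0. By the gene opposite, 6 fibroblast markers summed to 1399 to 1452 CPM in KO1, 1304 to 1342 in KO2 and 1527 to 1594 in wild type. Of these 6, 4 fell in the lines together, where 3.89% of all tested genes fell. Among fibroblast markers by their own symbol, and in all other marker sets, 0 genes were called in the lines together. Calls in KO1 and KO2 apart are not given for the marker sets. The neuronal sums lay on opposite sides of wild type in KO1 and KO2. The absence of calls in the lines together therefore cannot show whether neuronal markers differed in either line. The part of any of these cell types in the Grb10 counts was not tested. In bulk RNA, fewer cells of a type and less RNA per cell cannot be told apart.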

How the data were processed

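RNA of 6 libraries was measured. The 44 samples of other assays were not used here. The authors deposited raw counts per gene and counted fragments over exons with featureCounts 2.0.1, strand setting 1 and GENCODE mouse version 1 on mm9, per the file headers. The submitters' processing notes list Trim Galore 0.6.4 and STAR 2.5.4b. The sources used here do not say whether the library kit keeps strand.

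Counts were fitted with edgeR 4.0.16 (R 4.3.3): filterByExpr with a minimum count of 10, which left 5034 genes, TMM, library sizes summed over those genes, and a robust quasi-likelihood fit of 3 group means (3 residual degrees of freedom). A gene is called, and said to have risen or fallen, at a Benjamini-Hochberg adjusted p under 0.05 over all tested genes. Errors of log2 differences are standard errors. The alternatives were DESeq2 1.42.0 and other settings of the fit, given below. The gene opposite shares at least 50 exonic bases on the other strand (bedtools 2.31.1). The steps were tested on simulated counts. Tested genes held a median of 23 to 27 counts in a library, which limits precision.

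Grb10 and all lists were chosen with earlier results of these data known. The naming rule took Grb10, its tested neighbours, the 5 genes most like it (and 3 on chromosome 11), the 3 next above and below it there, up to 6 called (or 3 most abundant) members of each list, its family, receptors and checks. Mtor, Nedd4, Gigyf1, Gigyf2, the ligands, Tns3, Tspan32, Wdr92, Gm16033, SCARNA4, 1700042O10Rik and Ikzf1 fall outside it and were added after their values were seen. Some list genes that the rule takes are not reported here.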

Additional observations from a re-analysis of the deposited data

Results flagged for a closer look

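Each of the following genes differed between KO1 and KO2 in their change from wild type, by edgeR's quasi-likelihood test of KO1 against KO2, which cancels the shared wild type libraries. Grb10 was not among them. The log2 difference of KO1 against KO2 was 0.89 ± 0.27 at Nsd1 (adjusted p = 0.0187). In the pathway of Grb10 it was 1.60 ± 0.40 at 9530052E02Rik opposite Irs2 (0.00394).

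Among imprinted genes it was 0.99 ± 0.23 at H13 (adjusted p = 0.00198), 1.12 ± 0.16 at Gnas (4.48e-06), 0.85 ± 0.06 at Copg2 (1.71e-11) and 0.94 ± 0.13 at Commd1 (2.1e-06). It was 1.58 ± 0.09 at Rtl1 (2.61e-13) and 1.00 ± 0.09 at Xist (1.92e-09). Opposite imprinted genes it was -3.43 ± 0.36 at AL672259.1 (2.1e-08), -0.42 ± 0.05 at AF085738 (4.16e-08) and 0.66 ± 0.12 at Gm17639 (8.31e-05). These genes were among those called in at least 1 comparison with wild type, so they are not a random sample of the genome.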

How the results depend on the processing

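Over 11 alternatives, 170 of 185 recomputed values kept their direction and call or moved little, 14 moved and 1 turned its sign. The 170 include many call counts of 0 among the neighbours and the pathway genes, which had little room to move. The pooled number is therefore no measure of how stable the other results are. Call counts on chromosome 11 were among the values that moved. The Grb10 log2 difference ranged over 1.64 to 2.13 in the lines together, 1.36 to 2.03 in KO1 and 1.77 to 2.27 in KO2 when each library was left out in turn. The other alternatives gave 1.85 to 1.87, 1.71 to 1.74 and 1.98 to 2.0 for these. Between KO1 and KO2, leaving out a library gave -0.62 to 0.05, and the sign turned (0.05) without KO1 replicate 1. DESeq2 called 24 chromosome 11 genes in the lines together, 13 in KO1, 65 in KO2 and 86 between the lines, against 56, 36, 124 and 138 by edgeR. Leaving out a library gave 37 to 66, 18 to 43, 98 to 123 and 102 to 149. With all knockout libraries in 1 group, which puts the difference between the lines into the spread, 2 chromosome 11 genes and 0 imprinted genes were called, against 56 and 3. The cause of the other moves was not tested. The replicate numbers did not pair the libraries (correlations of deviations -0.04, 0.01 and -0.01), and with a replicate block Grb10 stood at 1.86 in the lines together and chromosome 11 at 51 calls. Among the neighbours of Grb10, 0 were called under every alternative run. DESeq2 called 2 imprinted genes in KO1, against 4 by edgeR, and without KO2 replicate 2 there was 1 pathway gene called in KO2, against 0. With 18 and 26 counts in wild type, the size of the Grb10 difference rests on 44 wild type counts.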
